A study of Mus musculus with 22 samples.

Results

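Oxidative phosphorylation genes were followed in bulk RNA-seq profiles of retinal microglia, the resident macrophages of the retina. They were taken as the protein-coding genes whose symbol begins with Nduf, Uqcr, Atp5, Cox4, Cox5, Cox6, Cox7 or Cox8, the 4 Sdh genes, and the protein-coding genes of the mitochondrial genome, whose symbols begin with mt-. By symbol, 107 genes matched. Of these, 99 had 10 or more reads in at least 5 of the 22 libraries, against 12388 genes past the same minimum and 35596 genes quantified. The rule used symbols and read counts and no contrast between groups, but it was set with earlier results of these data known. Of the 99 genes, 86 lie in the nuclear genome and 13 in mitochondrial DNA. The nuclear genes were 36 subunits of complex I, 8 complex I assembly factors (Ndufaf genes), 4 subunits of complex II, 8 of complex III, 12 of complex IV with Ndufa4 counted there, 16 of complex V, the supercomplex factor Cox7a2l, and Atp5s. The mitochondrial genes encode 7 subunits of complex I, 1 of complex III (mt-Cytb), 3 of complex IV and 2 of complex V.

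The libraries came from 12-week-old mice that had all received dead neurons by intravitreal injection 24 hours before the cells were taken. The genotypes were wild-type (C57BL/6) and Apoe-/- mice, which lack the lipid carrier apolipoprotein E. Microglia were sorted as CD11b+, Ly6c- and Fcrls+ cells, and uptake of the Alexa488-marked neurons parted phagocytic from non-phagocytic cells. This gave 5 wild-type phagocytic, 5 wild-type non-phagocytic, 6 Apoe-/- phagocytic and 6 Apoe-/- non-phagocytic libraries. Each library is a pool of 5 to 6 retinas of 1 sex and genotype, for which 100 to 500 phagocytic cells were collected, so p-values measure the spread between pools. The sex of each pool is not labelled, nor whether pools of equal number in both sorts came from the same retinas, and no group without injected neurons was analysed here.

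Oxidative phosphorylation is the process by which the inner mitochondrial membrane turns the energy of reduced cofactors into ATP. Complexes I and II take up electrons from NADH and succinate, complex III passes them to cytochrome c, complex IV gives them to oxygen, and complex V (ATP synthase) uses the resulting proton gradient. Complexes I, III, IV and V are built from subunits of both genomes, while complex II is wholly nuclear, so nuclear and mitochondrial transcripts of the same machine are made and degraded by separate systems. Macrophages are known to shift between oxidative phosphorylation and glycolysis with their state of activation.

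The libraries held between 1133577 and 3649436 estimated reads, of which 9.13% to 51.7% fell on 12 predicted genes made of satellite repeats. Among the other reads, the nuclear members took 0.846% to 1.47% and the mitochondrial members 1.05% to 2.96%. All 12 microglial markers examined were detected, with a summed level of 5986 to 21839 CPM (reads scaled to library size by TMM). Apoe itself, the targeted gene, stood at 869 to 5145 CPM in wild-type and at 7.02 to 34.9 CPM in Apoe-/- libraries. Markers of rods (15 of 15) were also detected, with median sums of 2207 CPM (phagocytic) and 2059 CPM (non-phagocytic) in wild-type libraries and of 4579 and 4298 CPM in Apoe-/- libraries. Summed lymphocyte markers reached at most 18.6 CPM, cone markers 289 CPM and neutrophil markers 924 CPM. Red blood cell markers reached 617 CPM in Apoe-/- phagocytic libraries, where their median was 1.77 CPM.

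Nuclear genes of oxidative phosphorylation are known for shared promoter elements, so the bases around their starts were searched for 9 short strings. RefSeq windows (build GRCm38.p6, 250 bases before to 50 after the start) were found for 72 of the 86 nuclear members, with 77 windows in all, and the strings were counted on both strands. The string GCGCANGCG, of the type bound by the regulator NRF1, was present in 29.9% of the members' windows and in 6.25% of all 32851 windows. The string CCGGAAG, of the ETS type that GABPA binds, was present in 23.4% against 8.86%. AAGATGGC, of the YY1 type, was present in 14.3% against 2.75%, and AAGGTCA, of the type bound by estrogen-related receptors, in 10.4% against 4.72%. Most matches of AAGATGGC in the members' windows lay after the start.

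Longer forms of these strings had fewer matches, with CCGGAAGT in 6.49% of the members' windows and 3.89% of all, and TCAAGGTCA in 2.60% and 0.423%. General promoter strings were GGGGCGGGG, of the SP1 type, in 15.6% and 11.4%, the CCAAT string in 41.6% and 37.4%, and TATAAA in 7.79% and 13.6%. CCGGAAGT contains CCGGAAG and TCAAGGTCA contains AAGGTCA, so their shares are not independent. The strings were chosen with these shares in view, and a match describes letters, not a bound site.

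Upstream stretches of 3 nuclear members are shown because they carry these strings outside every annotated exon and belong to members described below. Each is the 250 bases before the start of the gene, read 5′ to 3′ on the gene's strand, with the string named here in capitals. Ndufb6, a complex I subunit, holds CCGGAAG read on the opposite strand (chr4:40279422-40279671, minus strand). Ndufaf4, an assembly factor of complex I, holds the NRF1-type string on both strands of a single palindrome (chr4:24897833-24898082, plus strand). Atp5g3, 1 of 3 genes for the c subunit of ATP synthase, holds AAGGTCA read on the opposite strand, within a match to TCAAGGTCA, and a CCAAT string left in lower case (chr2:73911327-73911576, minus strand).
Ndufb6: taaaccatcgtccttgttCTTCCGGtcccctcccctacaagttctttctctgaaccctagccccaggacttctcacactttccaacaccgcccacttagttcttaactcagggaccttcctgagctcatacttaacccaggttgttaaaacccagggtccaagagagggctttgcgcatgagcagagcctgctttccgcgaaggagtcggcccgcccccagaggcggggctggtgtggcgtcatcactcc
Ndufaf4: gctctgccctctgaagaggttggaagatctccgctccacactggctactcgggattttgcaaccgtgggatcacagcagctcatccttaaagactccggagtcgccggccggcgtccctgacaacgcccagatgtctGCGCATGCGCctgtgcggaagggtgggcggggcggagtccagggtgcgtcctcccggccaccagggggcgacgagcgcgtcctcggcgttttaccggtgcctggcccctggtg
Atp5g3: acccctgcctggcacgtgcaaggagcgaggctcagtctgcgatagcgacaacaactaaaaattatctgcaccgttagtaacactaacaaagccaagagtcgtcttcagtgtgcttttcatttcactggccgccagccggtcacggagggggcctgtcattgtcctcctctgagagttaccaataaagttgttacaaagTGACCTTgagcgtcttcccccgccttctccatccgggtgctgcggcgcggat

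Members without a window included Atp5a1, Atp5mpl, Cox4i1, Cox6a2, Cox6c, Ndufa2, Ndufaf6, Ndufb9, Ndufs1, Sdhc, Uqcrb, Uqcrc2 and Uqcrq.

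Levels between genes were compared as TPM, which corrects for transcript length. Mitochondrial members took the 9 highest places, with a median over the 13 genes of 912 TPM against 138 TPM over the 86 nuclear genes (each gene as its mean over 22 libraries). The highest was mt-Nd1, a core subunit of complex I (chrM:2751-3707), at 3912 ± 1292 TPM (SD, n = 22). It was followed by mt-Co2 (2097 TPM) and mt-Co1 (1648 TPM), catalytic subunits of complex IV, with mt-Atp6 (1910 TPM), the proton channel subunit of complex V, between them. The SDs of mt-Co2 (580 TPM), mt-Atp6 (817 TPM) and mt-Co1 (386 TPM) were larger than the gaps between neighbours in this order. Near-identical copies in the nuclear genome held 4.35% of the reads shared with mt-Co2, 29.1% with mt-Atp6 and 23.7% with mt-Co1. The order therefore also depends on how such reads were shared out. The lowest were mt-Nd2 at 230 TPM and mt-Nd6 at 118 TPM. The gene of mt-Nd6 lies on the opposite strand (chrM:13552-14070, minus strand) from the other 12 mitochondrial members.

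Among nuclear members, complex IV had the highest levels (median 328 TPM), followed by complex III (205 TPM), complex V (204 TPM), complex I (119 TPM), complex II (64.3 TPM) and the complex I assembly factors (18.5 TPM). Cox4i1, a regulatory subunit of complex IV, led the nuclear genes at 562 ± 179 TPM (SD, n = 22) and stood in place 10 of all 99. Close to it were Ndufa4 at 491 TPM, Uqcrq of complex III at 472 TPM, Cox6b1 at 470 TPM, Atp5b, the catalytic beta subunit of ATP synthase, at 469 TPM, and Cox8a at 463 TPM, and the gaps between these were smaller than their SDs. Uqcr11 followed Uqcrq in complex III at 369 TPM, and Atp5mpl followed Atp5b in complex V at 383 TPM. For complex I the highest were Ndufa3 (343 TPM) and Ndufa2 (273 TPM), and for complex II the iron-sulfur subunit Sdhb (153 TPM) and the flavoprotein subunit Sdha (73.8 TPM). The lowest member of all was the assembly factor Ndufaf5 at 5.69 TPM.

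**Figure D1:**
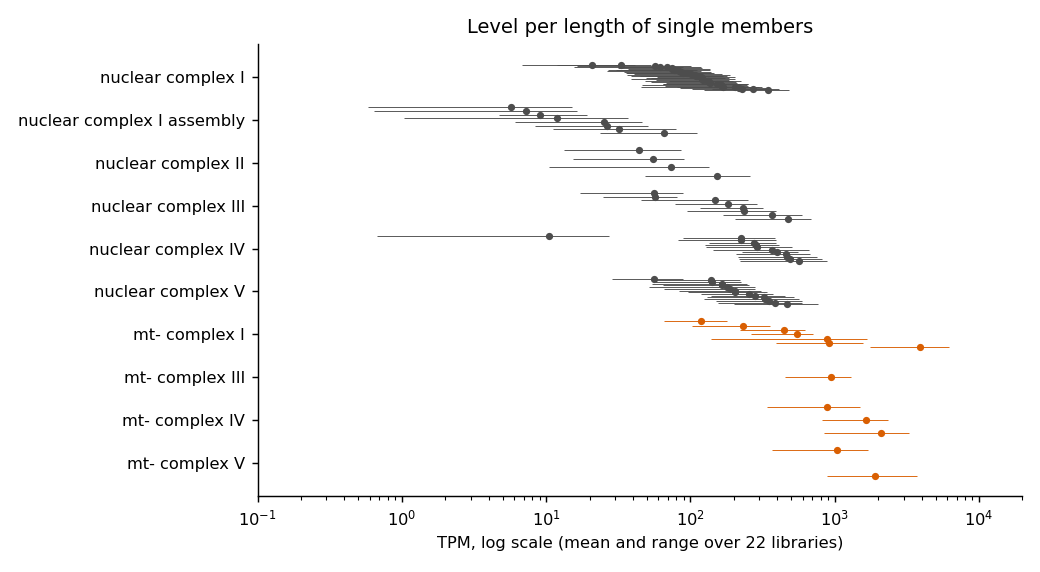
Level of each member in TPM (log axis), grouped by complex, with Cox7a2l and Atp5s not drawn; points are means over 22 libraries and lines span the lowest to the highest library. Mitochondrially encoded members lie between 118 and 3912 TPM and nuclear members between 5.69 and 562 TPM.

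The nuclear and mitochondrial members were then contrasted as sums per library. In wild-type libraries the nuclear sum was 9903 ± 880 CPM for the phagocytic and 8298 ± 1187 CPM for the non-phagocytic sort (SD, n = 5 each). In Apoe-/- libraries it was 9072 ± 994 and 8197 ± 1942 CPM (SD, n = 6 each). The mitochondrial sum was 13322 ± 921 and 11161 ± 4229 CPM in wild-type and 13652 ± 4513 and 12856 ± 4952 CPM in Apoe-/- libraries, again phagocytic first. Every pair of groups overlapped in both sums. In bulk libraries, fewer cells with many mitochondria and less mitochondrial RNA per cell cannot be told apart.

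In wild-type phagocytic libraries the nuclear sums of pools 1 to 5 were 9666, 11067, 10316, 9790 and 8677 CPM, and the mitochondrial sums 11828, 13365, 13987, 14164 and 13267 CPM. In wild-type non-phagocytic libraries the nuclear sums were 10012, 7344, 8568, 8553 and 7015 CPM, and the mitochondrial sums 18187, 8792, 11869, 9387 and 7568 CPM. Thus the phagocytic pools spanned a narrow range of the mitochondrial sum, while the non-phagocytic pools spanned 2.40-fold, with pool 1 the highest of the 5 in both sums. In Apoe-/- libraries the lowest, median and highest nuclear sums were 7937, 9007 and 10427 CPM in phagocytic and 6066, 7552 and 11566 CPM in non-phagocytic pools. The corresponding mitochondrial sums were 10208, 11870 and 22098 CPM, and 7940, 11208 and 22133 CPM. The highest mitochondrial sum of either sort came from pool 2. This held for CPM and not for summed TPM. There pool 3 was highest in both sorts, at 22532.4 (phagocytic) and 19021.9 TPM (non-phagocytic), and pool 2 had 19500.5 and 13156.4 TPM.

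**Figure D2:**
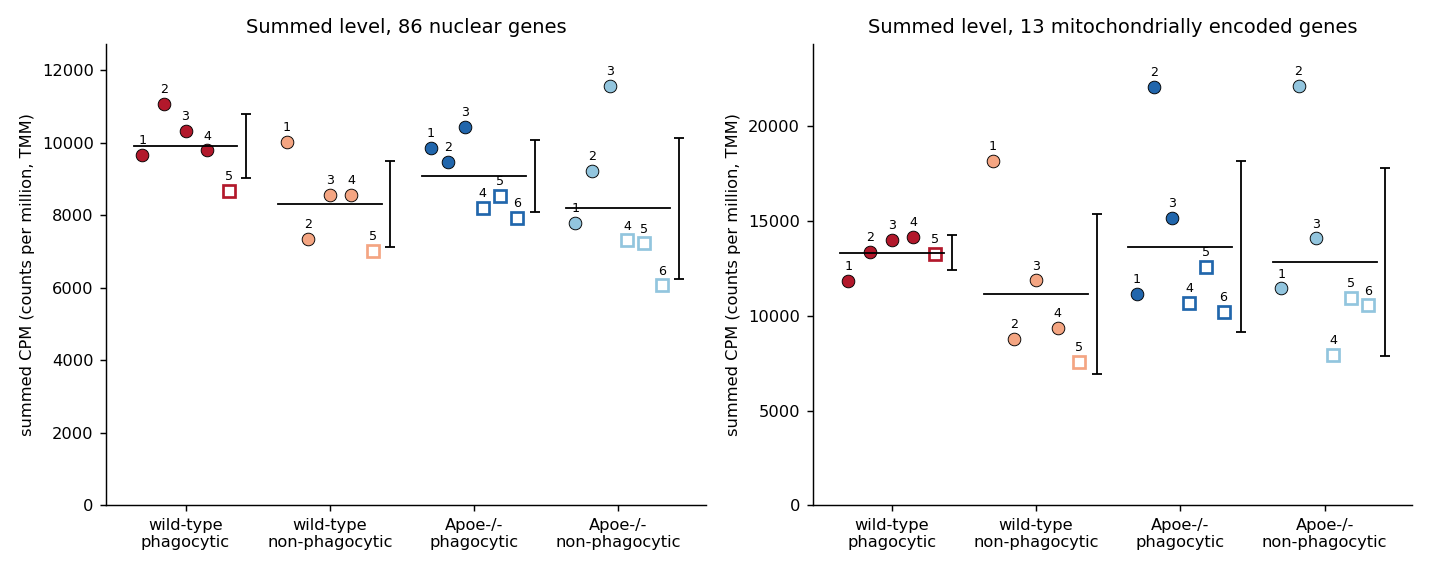
Summed CPM of the 86 nuclear (left) and the 13 mitochondrially encoded members (right) in each library of the 4 groups; numbers are pool numbers, horizontal lines group means and bars SD. Filled circles mark libraries with reads of Ddx3y and Eif2s3y (Y-linked), open squares the 8 libraries where they were nearly absent. Apoe-/- pool 2 is highest in the mitochondrial sum in both sorts, at 22098 and 22133 CPM.

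The log2 ratio of the nuclear to the mitochondrial sum put both on 1 scale. Its mean was -0.43 ± 0.15 for phagocytic and -0.37 ± 0.31 for non-phagocytic wild-type libraries, and -0.54 ± 0.36 and -0.60 ± 0.40 for the Apoe-/- libraries (SD). The wild-type phagocytic values were -0.29, -0.27, -0.44, -0.53 and -0.61 for pools 1 to 5, and the wild-type non-phagocytic values -0.86, -0.26, -0.47, -0.13 and -0.11. The lowest, median and highest were -1.22, -0.46 and -0.18 in Apoe-/- phagocytic and -1.26, -0.58 and -0.12 in Apoe-/- non-phagocytic libraries. All 4 groups overlapped, and the 2 lowest values were those of Apoe-/- pool 2.

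Phagocytic minus non-phagocytic cells differed in this ratio by -0.06 in wild-type and by 0.06 in Apoe-/- mice, against a pooled SD between pools of 0.33. Apoe-/- minus wild-type cells differed by -0.11 in phagocytic and by -0.24 in non-phagocytic cells, and the effect of the sort differed between genotypes by 0.13. Each difference was smaller than the pooled SD, which describes the spread of single pools and not the error of a difference of means. No test was applied to this score. Without Apoe-/- pool 2 the genotype differences were 0.02 in phagocytic and -0.11 in non-phagocytic cells.

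**Figure D3:**
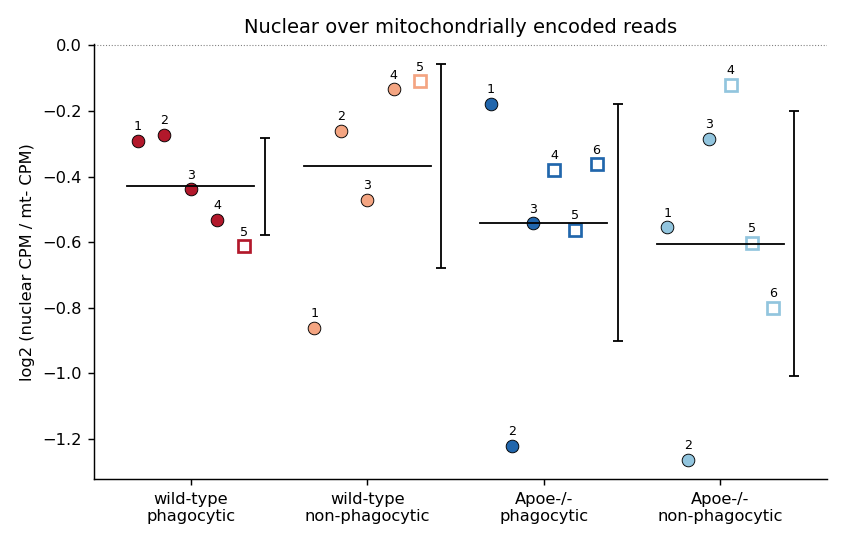
Log2 ratio of the summed CPM of nuclear to mitochondrially encoded members in each library; numbers are pool numbers, horizontal lines group means and bars SD, with filled circles and open squares as for the plot of summed CPM. The values span -1.26 to -0.11 and the 4 groups overlap.

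The first comparison asked whether wild-type microglia that had taken up neurons differed from those that had not. Most nuclear members had slightly higher estimates in phagocytic cells, but no member passed the test. The edgeR quasi-likelihood test with Benjamini-Hochberg adjustment called 0 of the 86 nuclear and 0 of the 13 mitochondrial members, and 0.209% of all 12415 genes tested, at an adjusted p under 0.05. DESeq2 on the counts and limma on the FPKM values also called 0 members. At an unadjusted p under 0.05, 9 nuclear members had higher and 0 lower estimates, against 4.6% and 3.14% of all genes, and 0 mitochondrial members reached it.

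The log2 fold change was above 0 for 75 of 86 nuclear and 12 of 13 mitochondrial members, against 49.2% of all genes. Its median was 0.26 for nuclear members, 0.23 for mitochondrial members and -0.01 for all genes tested. By complex, estimates were above 0 for 34 of 36 subunits of complex I (median 0.30), 4 of 4 of complex II (0.17), 8 of 8 of complex III (0.26), 12 of 12 of complex IV (0.28) and 15 of 16 of complex V (0.24). Of the 8 assembly factors, 2 had estimates above 0, with a median of -0.34, a median SE of 0.33 and a smallest adjusted p of 0.767 (edgeR, Benjamini-Hochberg), and their difference from the subunits was not tested. Members of a complex share libraries, so these counts are not independent observations. Among mitochondrial members the estimates ran from -0.13 ± 0.39 (mt-Co3) to 0.84 ± 0.63 (mt-Nd4l), with mt-Co1 at 0.34 ± 0.27, mt-Co2 at 0.22 ± 0.28 and mt-Atp6 at 0.32 ± 0.33. Without wild-type non-phagocytic pool 1 the mitochondrial median was 0.49, and without pool 5 of that group it was 0.13.

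The smallest adjusted p belonged to Ndufb5, an accessory subunit of complex I (ENSMUSG00000027673, chr3:32736990-32751566). Its CPM in phagocytic pools 1 to 5 were 110, 75.3, 96.5, 69.7 and 71.1, and in non-phagocytic pools 71.2, 59.1, 47.3, 40.1 and 47.2. Non-phagocytic pool 1 lay above phagocytic pools 4 and 5, and the other values did not overlap. The log2 fold change was 0.68 ± 0.22 (SE), with an adjusted p of 0.299 (edgeR, Benjamini-Hochberg).

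For 3 members, all of complex I, the phagocytic and non-phagocytic pools did not overlap, with every phagocytic pool higher, which is 3.49% of the nuclear members against 1.51% of all genes, and 0 members were lower without overlap, against 0.636%. Ndufa8, an accessory subunit (ENSMUSG00000026895, chr2:36036326-36049406), had 89.4, 85.3, 86.2, 95.4 and 85.3 CPM in phagocytic and 57.8, 64.3, 43.2, 52.6 and 52.9 CPM in non-phagocytic pools. Its log2 fold change was 0.71 ± 0.23 (SE), and its adjusted p 0.322 (edgeR, Benjamini-Hochberg). Ndufs4, a subunit of the NADH-binding arm whose loss is known to cause Leigh-like disease, had 59.3, 51.5, 54.9, 47.5 and 45.7 CPM against 42.3, 33.7, 39.9, 40.7 and 26.4 CPM, a log2 fold change of 0.50 ± 0.23. Ndufb8, named here after its values were seen, had 156, 156, 153, 160 and 143 CPM against 128, 119, 103, 131 and 88.4 CPM. Its log2 fold change was 0.44 ± 0.21. The remaining 83 nuclear members overlapped between the sorts.

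Further members with a small unadjusted p came from several complexes. Cox6a1, the subunit VIa isoform of complex IV found in most tissues (chr5:115345642-115348981), had 189, 261, 199, 214 and 153 CPM in phagocytic and 166, 136, 131, 145 and 125 CPM in non-phagocytic pools. Phagocytic pool 5 fell within the non-phagocytic range. The log2 fold change was 0.53 ± 0.20, with an adjusted p of 0.475 (edgeR, Benjamini-Hochberg). Ndufa9, a subunit at the joint of the arms of complex I, had a log2 fold change of 0.55 ± 0.21. Uqcrc1, a core subunit of complex III, had 0.47 ± 0.21, and Sdhb of complex II 0.44 ± 0.21. For these 3 the adjusted p lay between 0.485 and 0.641 (edgeR, Benjamini-Hochberg).

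**Figure D4:**
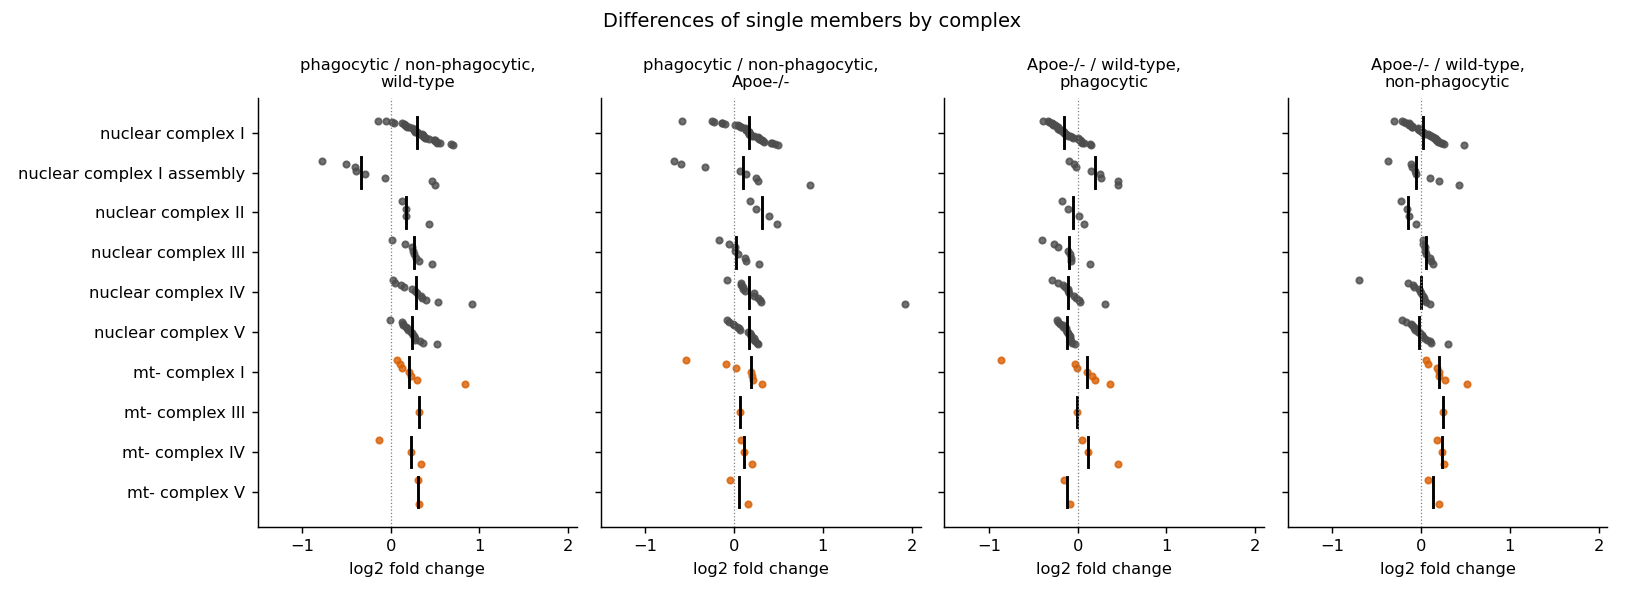
Log2 fold change of each member, grouped by complex, in the 4 comparisons of groups, with Cox7a2l and Atp5s not drawn; grey points are nuclear and orange points mitochondrially encoded members, and black bars are medians. In wild-type cells all 12 points of nuclear complex IV and all 8 of complex III lie above 0 for phagocytic against non-phagocytic cells, and no point in any panel passed an adjusted p of 0.05.

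Markers of border macrophages (6 of 6 detected, none under 10 reads in every library) moved with the sort. Their summed level was 435 to 866 CPM in wild-type phagocytic and 245 to 353 CPM in wild-type non-phagocytic libraries, and 384 to 1039 and 183 to 319 CPM in the Apoe-/- libraries. Stab1 was the largest part of that sum, with medians of 427 and 220 CPM in wild-type and 500 and 227 CPM in Apoe-/- libraries. The other markers (Mrc1, Cd163, Lyve1, Pf4 and F13a1) were lower in level and also had higher medians in the phagocytic sort of both genotypes. Monocyte markers (8 of 8 detected) summed to 1066 to 3279 CPM in wild-type phagocytic and 626 to 3152 CPM in wild-type non-phagocytic libraries (medians 1622 and 946 CPM). Fn1 was the largest part of that sum, with medians of 1368 and 602 CPM. Ly6c2, Chil3, Vcan and Lyz1 also had higher medians in the phagocytic sort, while Ccr2, Plac8 and S100a4 had lower ones. In Apoe-/- libraries the monocyte markers summed to 392 to 1201 and 483 to 1205 CPM, with the lower median in the phagocytic sort (754 against 862 CPM). Their part in the values of the members was not tested.

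The same contrast of sorts in Apoe-/- mice gave smaller medians. edgeR's test with Benjamini-Hochberg adjustment called 0 of 86 nuclear and 0 of 13 mitochondrial members and 0.467% of all genes, and DESeq2 and limma called 0 members. At an unadjusted p under 0.05, 7 nuclear members had higher and 0 lower estimates, against 5.49% and 4.45% of all genes, with 0 mitochondrial members. Estimates were above 0 for 69 of 86 nuclear and 10 of 13 mitochondrial members, against 47.7% of all genes. The medians were 0.16 for nuclear members, 0.11 for mitochondrial members and -0.02 for all genes.

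By complex, 30 of 36 subunits of complex I (median 0.17), 4 of 4 of complex II (0.32), 6 of 8 of complex III (0.03), 11 of 12 of complex IV (0.17), 12 of 16 of complex V (0.17) and 5 of 8 assembly factors (0.10) had estimates above 0. No member's pools were free of overlap between the sorts, against 0.524% of all genes higher and 0.346% lower. The mitochondrial median was 0.37 without non-phagocytic pool 2, -0.11 without phagocytic pool 2 and -0.0025 without non-phagocytic pool 4, so its sign rests on single libraries. The nuclear median ranged from 0.07 without non-phagocytic pool 6 to 0.26 without non-phagocytic pool 3.

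The largest estimate was that of Cox6a2, the subunit VIa isoform known from heart and skeletal muscle (ENSMUSG00000030785, chr7:128205435-128206387). Its lowest, median and highest CPM were 3.79, 10.2 and 15.1 in Apoe-/- phagocytic and 0.84, 2.47 and 5.44 in Apoe-/- non-phagocytic pools. Phagocytic pools 4 and 6, at 3.79 and 4.18 CPM, fell below non-phagocytic pool 1 at 5.44 CPM, and the other pools did not overlap. The log2 fold change was 1.93 ± 0.56 (SE), with an adjusted p of 0.148 (edgeR, Benjamini-Hochberg). In wild-type pools 1 to 5 the values were 7.81, 12.2, 8.57, 3.42 and 6.22 CPM in phagocytic and 9.86, 4.86, 2.24, 1.63 and 2.17 CPM in non-phagocytic cells, a log2 fold change of 0.91 ± 0.58. Cox6a2 was a gene of few reads, with 10 or more reads in only 10 libraries, most of them phagocytic. It met the read minimum through the sort where it was higher, so its estimate is not independent of that minimum.

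Other members with a small unadjusted p in Apoe-/- mice were mostly of complex I. Ndufb6, an accessory subunit (chr4:40270591-40279421) whose upstream bases are printed above, had a lowest, median and highest level of 49.5, 74.3 and 84.2 CPM in phagocytic and 42.4, 50.3 and 62.2 CPM in non-phagocytic pools. These ranges overlapped through phagocytic pools 5 and 6. The log2 fold change was 0.46 ± 0.17, with an adjusted p of 0.326 (edgeR, Benjamini-Hochberg). Ndufaf3, an early assembly factor, had 11.3, 22.6 and 32.5 CPM in phagocytic and 6.41, 11.5 and 22.7 CPM in non-phagocytic pools, a log2 fold change of 0.85 ± 0.33. Sdhb had 158, 172 and 241 CPM against 77.9, 118 and 215 CPM, a log2 fold change of 0.48 ± 0.19, close to its value of 0.44 ± 0.21 in wild-type mice. Ndufa1, an X-linked accessory subunit, had 0.49 ± 0.23 and Ndufa9 0.42 ± 0.20. The adjusted p of these 4 lay between 0.343 and 0.472 (edgeR, Benjamini-Hochberg).

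Genotype was compared within each sort, and these comparisons share their libraries with the contrasts of the sorts, so that their values are given side by side and not as independent support. In phagocytic cells, edgeR's test with Benjamini-Hochberg adjustment called 0 of 99 members against 0.0322% of all genes, and DESeq2 and limma called 0. At an unadjusted p under 0.05, 0 members were reached, while 2.43% of all genes had higher and 4.19% lower estimates. Estimates were above 0 for 21 of 86 nuclear members (median -0.11) and 7 of 13 mitochondrial members (median 0.05), against 49.5% of all genes (median -0.0040). No member's pools were free of overlap, against 0.298% of all genes higher and 0.491% lower. Complex V had 0 of 16 estimates above 0, complex III 1 of 8, complex IV 3 of 12 and complex I 10 of 36. Complex II had 2 of 4 and the assembly factors 5 of 8. With the reads of Y-linked genes as a covariate, the nuclear median was -0.0008. The mitochondrial median changed sign without Apoe-/- pool 2 (-0.13), in a fit adjusted for satellite-like reads (-0.09) and with limma on FPKM (-0.05). Summed monocyte markers had medians of 754 CPM in Apoe-/- and 1622 CPM in wild-type phagocytic libraries, with Fn1 at 641 and 1368 CPM. Plac8 was level (34.5 and 34.2 CPM) and the other monocyte markers had lower medians in Apoe-/- libraries. The part of monocyte markers in these values was not tested.

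Uqcrc1 (chr9:108936633-108949623) had the smallest p among nuclear members. Its CPM were 295, 348, 321, 240 and 263 in wild-type phagocytic pools, and 186, 212 and 296 (lowest, median and highest) in Apoe-/- phagocytic pools. The Apoe-/- pools reached into the wild-type range through pool 3. The log2 fold change of Apoe-/- against wild-type was -0.40 ± 0.20 (SE), with an adjusted p of 0.783 (edgeR, Benjamini-Hochberg). Ndufb11, an X-linked accessory subunit of complex I, had -0.39 ± 0.24 and Cox6a1 -0.29 ± 0.19. The assembly factors Ndufaf4 and Ndufaf2 had estimates of the other sign, 0.46 ± 0.30 and 0.45 ± 0.30. Among mitochondrial members, mt-Nd4l had the largest estimate, -0.86 ± 0.60.

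In non-phagocytic cells, edgeR's test with Benjamini-Hochberg adjustment called 0 of 99 members against 0.0161% of all genes, and DESeq2 and limma called 0. At an unadjusted p under 0.05, 0 members were reached, with 1.78% of all genes higher and 2.02% lower. Estimates were above 0 for 46 of 86 nuclear members (median 0.01) and for 13 of 13 mitochondrial members (median 0.20), against 49.7% of all genes (median -0.0021). No member's pools were free of overlap, against 0.105% of all genes higher and 0.193% lower. The mitochondrial median was -0.02 without Apoe-/- pool 2, 0.45 without wild-type pool 1, 0.08 without wild-type pool 5 and 0.30 without Apoe-/- pool 4. With the share of satellite-like reads as a covariate it was -0.05.

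The nuclear median ranged from -0.12 (without Apoe-/- pool 3) to 0.09 (without wild-type pool 1) over left-out libraries and was -0.23 with limma on FPKM, where the median of all genes was -0.17. By complex, the medians were 0.02 in complex I, -0.14 in complex II, 0.05 in complex III, -0.01 in complex IV and -0.02 in complex V. Ndufa11 had the smallest p, with 66.2, 43.0, 51.8, 53.1 and 36.8 CPM in wild-type and 26.0, 41.2 and 52.7 CPM (lowest, median and highest) in Apoe-/- pools. The ranges overlapped, and the log2 fold change was -0.30 ± 0.21. Ndufb2 of complex I had 0.49 ± 0.34, Ndufaf8 -0.37 ± 0.30, Cox7a2l, which helps to join complexes III and IV, -0.26 ± 0.21, and Cox6a2 -0.70 ± 0.59. The smallest adjusted p over the 99 members was 0.999 (edgeR, Benjamini-Hochberg). The summed rod markers given above were higher in Apoe-/- than in wild-type medians of both sorts, and their part in these values was not tested.

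Whether the effect of the sort differed between genotypes was tested as an interaction. No gene passed, so the share of all genes called was 0%, and edgeR with Benjamini-Hochberg adjustment also called 0 of 99 members, of which 0 had an unadjusted p under 0.05, against 1.12% of all genes higher and 1.3% lower. DESeq2 and limma called 0 members. The difference (Apoe-/- minus wild-type effect) was above 0 for 27 of 86 nuclear and 4 of 13 mitochondrial members, against 48.5% of all genes, with medians of -0.12, -0.13 and -0.01. Ndufb11 had the smallest p, with a difference of -0.63 ± 0.35, made of 0.49 ± 0.25 in wild-type and -0.14 ± 0.23 in Apoe-/- mice. Atp5e, the epsilon subunit of ATP synthase, had -0.53 ± 0.39. The value of mt-Nd4l was -1.38 ± 0.86, made of 0.84 ± 0.63 and -0.54 ± 0.58. The standard error of such a difference had a median of 0.31 over the single nuclear members. Without Apoe-/- non-phagocytic pool 3 the nuclear median was 0.02, and without Apoe-/- non-phagocytic pool 2 the mitochondrial median was 0.11.

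In a few libraries the mitochondrial members stood high together in CPM. In Apoe-/- pool 2 all 13 stood above every other pool of their group in both sorts, at a median of 1.97-fold (phagocytic) and 2.09-fold (non-phagocytic) of the median of the other pools. The nuclear members of the same libraries stood at a median of 1.08-fold and 1.31-fold, with 26 and 22 of 86 above every other pool. In wild-type non-phagocytic pool 1, 12 of 13 mitochondrial and 55 of 86 nuclear members stood above every other pool, at medians of 2.15-fold and 1.31-fold. In wild-type phagocytic pools the mitochondrial members did not all move together. There pool 4 had the lowest mitochondrial sum for complex I (5447 CPM) and the highest for complex IV (5897 CPM). The share of satellite-like reads in Apoe-/- pool 2 was 36.9% and 51.7%. Apoe-/- non-phagocytic pool 5, with a share of 47.6%, had a mitochondrial sum of 10965 CPM, below the group's median, and the part of these reads in the pattern was not tested.

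mt-Cytb, the only complex III subunit of the mitochondrial genome (chrM:14145-15288), shows the pattern. Its CPM were 1093, 1149, 1151, 1280 and 1092 in wild-type phagocytic and 1414, 724, 912, 937 and 633 in wild-type non-phagocytic pools. In Apoe-/- cells the lowest, median and highest were 819, 1023 and 1870 in phagocytic and 784, 943 and 2006 in non-phagocytic pools. Both highest values were of pool 2, and the other Apoe-/- pools of either sort reached at most 1206 CPM.

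Across the other mitochondrial members the groups overlapped in every comparison. mt-Nd4, a proton-pumping subunit of complex I, had 702, 644, 638, 675 and 649 CPM in wild-type phagocytic and 886, 423, 530, 477 and 387 CPM in wild-type non-phagocytic pools. Without pool 1 the non-phagocytic values of this gene would all lie below the phagocytic ones. In Apoe-/- pools the lowest, median and highest were 529, 647 and 1260 CPM in phagocytic and 403, 558 and 1080 CPM in non-phagocytic cells. mt-Nd1 ranged from 1935 to 5790 CPM over the 22 libraries, mt-Co1 from 1614 to 4673 CPM and mt-Nd5 from 642 to 2018 CPM. The small proton-channel partner mt-Atp8 ranged from 47.5 to 174 CPM and mt-Nd6 from 28.2 to 95.8 CPM.

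mt-Nd4l, a short subunit of complex I (chrM:9877-10173), varied most. Its CPM were 274, 224, 224, 205 and 198 in wild-type phagocytic and 283, 41.9, 98.8, 160 and 50.3 in wild-type non-phagocytic pools. In Apoe-/- cells its lowest, median and highest were 20.6, 70.4 and 369 CPM in phagocytic and 20.1, 166 and 396 CPM in non-phagocytic pools. The wild-type phagocytic pools were the only group without a value below 100 CPM. Its SD within groups on the log2 scale was 1.27, the highest of the 99 members, against a median of 0.47 for the mitochondrial members, 0.35 for the nuclear members, 0.50 for the assembly factors and 0.57 for all genes. A copy in the nuclear genome, Gm10222, identical over 294 bases, held 19.9% of the reads that it and mt-Nd4l had together. How reads were shared out between them is uncertain, and its part in this spread was not tested.

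**Figure D5:**
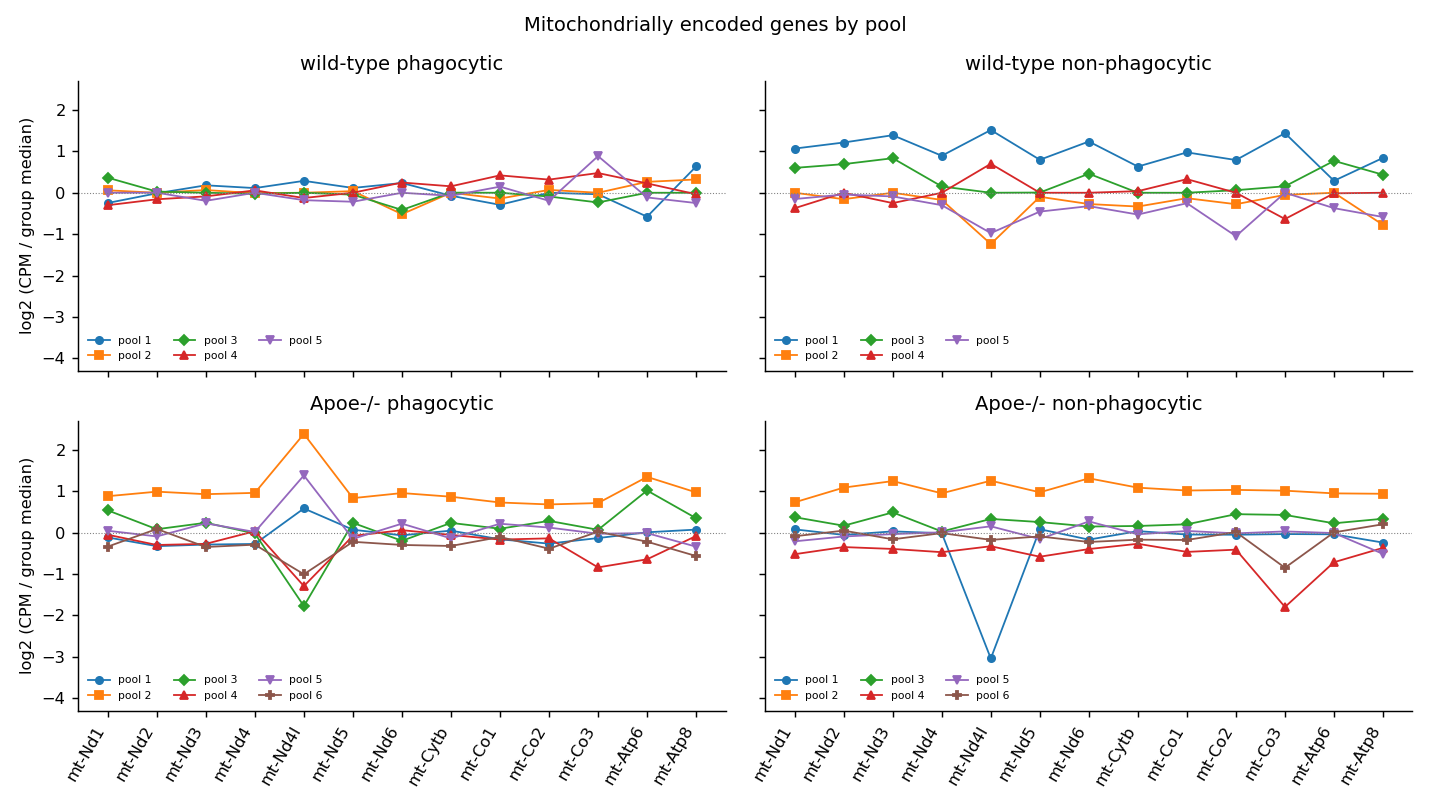
Log2 of each mitochondrial member's CPM over the median of its group, with 1 line per pool and 1 panel per group. The line of Apoe-/- pool 2 lies above 0 at all 13 genes in both sorts, and mt-Nd4l has the widest spread.

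Copies of mitochondrial genes in the nuclear genome can take up reads of mitochondrial origin, since their sequences are near-identical. Of the 99 members, 33 had at least 1 such partner among the quantified genes, and 11 of the 55 partners were of mitochondrial members. The partner Gm10925 on chromosome 1 held 29.1% of the reads that it and mt-Atp6 had together, Gm29216 held 23.7% beside mt-Co1, Gm28437 22.5% beside mt-Co3, and Gm10222 19.9% beside mt-Nd4l. The values of these mitochondrial members are therefore uncertain to that extent. For mt-Co2 (Gm28661, 4.35%) and mt-Nd3 (Gm28438, 2.36%) the share was small. Among nuclear members, Atp5g2 and Ndufb4 held fewer reads than their pseudogenes Gm10175 (78.4% of both) and Ndufb4c (69.7%), so their values are uncertain. With partners added to their members, 0 members were called in any comparison.

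Reads of 2 Y-linked genes, Ddx3y and Eif2s3y, parted the pools in a way that the labels do not give. They were nearly absent (at most 4 reads in all) in 8 libraries, those of wild-type pool 5 and Apoe-/- pools 4, 5 and 6 in both sorts, while the others had at least 52. The nuclear sum of these libraries lay below that of every other pool of the same group in all 4 groups. In wild-type mice it was 8677 CPM against 9666 to 11067 CPM (phagocytic) and 7015 against 7344 to 10012 CPM (non-phagocytic). In Apoe-/- mice it was 7937 to 8533 against 9481 to 10427 CPM (phagocytic) and 6066 to 7308 against 7795 to 11566 CPM (non-phagocytic). Mitochondrial sums overlapped in the phagocytic sort of both genotypes and were lower in these pools in the non-phagocytic sort of both.

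Gene by gene, 36 of 86 nuclear members in wild-type phagocytic cells were lower in that pool than in every other pool (41.9%, against 15.7% of all genes), and 36 of 86 in wild-type non-phagocytic cells (41.9% against 16.7%). In Apoe-/- cells, 23 (26.7% against 7.03%) and 24 (27.9% against 5.99%) nuclear members were lower in all 3 such pools than in the other 3. For mitochondrial members the counts were 6, 7, 4 and 4 of 13. This split was made after the data were seen, rests on 1 wild-type pool, and was not tested. In each sort it set 1 wild-type pool against 4 and 3 Apoe-/- pools against 3, so it is partly confounded with genotype. With these reads as a covariate, 0 members were called in any comparison.

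Several subunits exist as paralogues that differ by tissue. Apart from Cox6a2, described above, the tissue-restricted isoforms of complex IV had few or no reads. Cox4i2, Cox6b2, Cox7a1, Cox7b2, Cox8b and Cox8c, together with Ndufa4l2 and a second identifier of Atp5o, were the 8 genes under the read minimum, and Cox7b2 had no read in any library. Cox4i2 ranged from 0 to 2.75 CPM beside Cox4i1 at 199 to 502 CPM, and Cox7a1 from 0 to 2.82 CPM beside Cox7a2 at 74.3 to 161 CPM. Cox8a, the form found in most tissues, had 216 ± 38.7 CPM in wild-type phagocytic and 183 ± 47.1 CPM in wild-type non-phagocytic libraries (SD, n = 5). Cox6b1 had 203 ± 21.4 and 159 ± 25.9 CPM in the same groups, with a log2 fold change of 0.35 ± 0.21, and the groups overlapped.

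The c subunit of ATP synthase, which forms the rotating ring, is encoded by Atp5g1, Atp5g2 and Atp5g3, whose mature proteins are alike. In wild-type phagocytic libraries they had 210 ± 20.2, 37.9 ± 11.5 and 138 ± 19.9 CPM, and in wild-type non-phagocytic libraries 183 ± 26.2, 34.6 ± 4.57 and 116 ± 28.0 CPM (SD, n = 5). Their log2 fold changes between these sorts were 0.20 ± 0.20, 0.13 ± 0.24 and 0.26 ± 0.20. The 4 subunits of complex II had estimates of 0.13 ± 0.28 (Sdha), 0.44 ± 0.21 (Sdhb), 0.18 ± 0.21 (Sdhc) and 0.17 ± 0.21 (Sdhd) in wild-type and of 0.18 ± 0.26, 0.48 ± 0.19, 0.39 ± 0.19 and 0.25 ± 0.19 in Apoe-/- mice. All 8 of these values were above 0, and none passed the adjusted threshold in edgeR's test. The ATP synthase inhibitor Atpif1, outside the symbols used, had 119 ± 29.1, 106 ± 35.4, 91.6 ± 17.6 and 113 ± 55.2 CPM in the 4 groups in the order given at the start.

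Genes of the wider pathway were read from the same fit as 7 lists, in which 0 genes passed the adjusted threshold in any of the 5 comparisons. In wild-type phagocytic against non-phagocytic cells, estimates were above 0 for 6 of 7 electron carriers (median 0.32), 8 of 8 carriers and pores (0.25) and 7 of 7 mitochondrial stress genes and chaperones (0.22). They were above 0 for 20 of 38 assembly factors outside the Nduf symbols (0.02), 13 of 26 genes of mitochondrial DNA and RNA (0.01), 7 of 13 of the citric acid cycle (0.01) and 2 of 9 biogenesis regulators (-0.27). In Apoe-/- mice the counts were 4 of 7 electron carriers (0.08), 4 of 8 carriers and pores (0.01), 3 of 7 stress genes (-0.03), 20 of 38 assembly factors (0.06), 9 of 26 genes of mitochondrial DNA and RNA (-0.08), 9 of 13 of the citric acid cycle (0.07) and 7 of 9 regulators (0.16). In Apoe-/- against wild-type phagocytic cells, 1 of 13 citric acid cycle genes (-0.22) and 1 of 8 carriers and pores (-0.12) were above 0.

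Regulators known to act on these genes had mean levels from 2.81 CPM (Ppargc1a, wild-type phagocytic cells) to 77.0 CPM (Pprc1, Apoe-/- non-phagocytic cells). Nrf1, whose protein binds the GCGCANGCG type of string, had 34.6 ± 9.01, 40.1 ± 11.6, 31.2 ± 11.3 and 22.8 ± 6.81 CPM in the 4 groups (SD). Its log2 fold change of Apoe-/- against wild-type was -0.82 ± 0.28 in non-phagocytic cells, with an adjusted p of 0.999 (edgeR, Benjamini-Hochberg). In phagocytic cells it was -0.14 ± 0.28. Gabpa, which binds the ETS type, had -0.83 ± 0.35 and -0.07 ± 0.35 in the same comparisons. Tfam, which packages mitochondrial DNA and starts its transcription, had -0.05 ± 0.36 for the sorts in wild-type and -0.33 ± 0.33 in Apoe-/- mice. Polrmt, the mitochondrial RNA polymerase, had 0.32 ± 0.40 and 0.15 ± 0.37. The coactivators Ppargc1a, Ppargc1b and Pprc1 had -0.60 ± 1.05, 0.02 ± 0.68 and -0.40 ± 0.26 for the sorts in wild-type mice, Esrra 0.34 ± 0.36 and Yy1 -0.27 ± 0.30. None of these regulators passed the adjusted threshold in any of the 5 comparisons.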

How the data were processed

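Per the labels, 22 pools of sorted retinal microglia were sequenced, and SMART-Seq2, which copies whole transcripts from few cells, was used per the file headers. The authors deposited an estimated count, a TPM value, a length and an effective length per transcript (116248 transcripts) for each library, and a gene table of FPKM values, for which a minimum of 5 is stated per the file headers. The submitters' processing notes name Salmon 1.4.0, R 4.0.3, DESeq2 1.30.1 and mm10 without their roles. Reads that fit several transcripts are shared out in such estimates, so near-identical genes are uncertain.

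Transcripts were matched to GENCODE M21 (GRCm38), and 176 did not match (0.118% to 0.262% of reads, left out). Estimated counts were summed per gene and rounded. All genes were tested in 1 fit over 22 libraries and 4 groups with edgeR 4.0.16 in R 4.3.3 (quasi-likelihood, TMM, filterByExpr, Benjamini-Hochberg over 12415 genes, threshold 0.05). All 99 members passed that filter, and the common biological coefficient of variation was 0.426. Levels are CPM as mean ± SD, and fold changes are log2 estimates ± SE. Alternatives were DESeq2 1.42.0, limma 3.58.1 on log2(FPKM + 1), other scalings and filters, covariates, a replicate block, added near-identical copies (found with blastn 2.17.0 at 95% identity or more over at least 100 bases) and leaving out each library. The calculation was tested on simulated data.

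The labels do not say whether equal replicate numbers share retinas, so they were not taken as pairs. Libraries of the same number and genotype correlated in their deviations by 0.04 to 0.423. The members, the lists and the alternatives were chosen with earlier results of these data known. Genes named were any past the threshold, all mitochondrial members, the 5 nuclear members with the smallest p in each comparison, the 2 highest nuclear members of each complex by TPM, paralogue sets, Sdh genes and 9 regulators. 1 item that this rule names is not reported here.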

Additional observations from a re-analysis of the deposited data

Results flagged for a closer look

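In 26 of 212 sets of values tested (5 or 6 pools of a group for 1 member or ratio), the highest or lowest pool lay far from the others by Dixon's criterion, which chance meets in about 1 in 20 groups. The sets share libraries and are not independent. Most of the 26 came from Apoe-/- pool 2 and wild-type non-phagocytic pool 1. In phagocytic cells, Apoe-/- pool 2 had a log2 ratio of nuclear to mitochondrial CPM of -1.22, with the others from -0.56 to -0.18. Its mitochondrial genes were mt-Nd2 at 511 CPM, mt-Nd3 at 385 CPM, mt-Nd4 at 1260 CPM, mt-Nd5 at 1722 CPM, mt-Nd6 at 91.7 CPM, mt-Cytb at 1870 CPM and mt-Co1 at 4522 CPM, all above the other pools. In non-phagocytic cells the same pool had the highest mt-Nd2 (421 CPM), mt-Nd4 (1080 CPM), mt-Nd6 (95.8 CPM), mt-Cytb (2006 CPM) and mt-Co1 (4673 CPM), and the highest Ndufb2 (284 CPM, with the others from 60.8 to 116 CPM).

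Wild-type non-phagocytic pool 1 was the highest of its group in mt-Nd4 (886 CPM), mt-Nd5 (1530 CPM), mt-Co3 (1238 CPM), Ndufa2 (171 CPM), Ndufb2 (168 CPM) and Cox7a2 (161 CPM). In wild-type phagocytic cells, Cox7a2 was highest in pool 2 (152 CPM) and mt-Nd2 lowest in pool 4 (203 CPM, with the others from 224 to 231 CPM). Among other non-phagocytic pools, Sdhb was highest in wild-type pool 3 (182 CPM), Cox6a2 in Apoe-/- pool 1 (5.44 CPM), and Ndufb5 (94.2 CPM) and Ndufs4 (61.4 CPM) in Apoe-/- pool 3.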

How the results depend on the processing

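No member was called in any of the 5 comparisons in 135 alternative results (edgeR, DESeq2 or limma, each library left out included). The smallest adjusted p was 0.0634 (Sdhb in the Apoe-/- sorts, edgeR with Benjamini-Hochberg adjustment and the replicate block), and the smallest p of that comparison ranged from 0.0634 to 0.421 over its alternatives. Of 6747 alternative fold changes of named members 488 changed sign, with the value on neither side past the threshold. The labels do not say whether equal replicate numbers share retinas, so the numbers were not taken as pairs. Of the 11 same-number correlations of deviations, 3 were at or under 0.1. As a hint from the data and not the design, all 11 were above 0, the 8 libraries nearly without Y-linked reads had the same numbers in both sorts, libraries correlated best with their own number in 7 of 11 pools, and the replicate block gave 0 members called, with 135 genes called in the wild-type sorts and 255 in the Apoe-/- sorts in place of 26 and 58, and 0 in the interaction. No paired analysis was possible between genotypes because no pool occurs in both.

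Counts over all genes moved more. For the wild-type sorts (26 genes), DESeq2 called 100, the test without a filter 122, the satellite-like share as covariate 59 and Y-linked reads as covariate 49. For the Apoe-/- sorts (58 genes), these were 145 (DESeq2), 137 (no filter) and 89 (Y-linked reads), with 25 for limma on FPKM and 16 without non-phagocytic pools 2 and 5. For genotype in phagocytic cells (4 genes) DESeq2 called 19, no filter 96 and a fit of the groups compared 2. For genotype in non-phagocytic cells (2 genes) no filter called 16, and for the interaction (0 genes) DESeq2 called 2 and no filter 17. The Y-linked covariate and the exclusion of whole pools were chosen after seeing the data.

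Leaving out 1 library moved the wild-type count to 14 (phagocytic pool 2), 16, 13, 64 and 16 (non-phagocytic pools 2, 3, 4 and 5). It moved the Apoe-/- count to 89, 29, 18 and 33 (phagocytic pools 2, 4, 5 and 6) and to 38, 24, 38 and 27 (non-phagocytic pools 3, 4, 5 and 6), and the phagocytic genotype count to 23 (Apoe-/- pool 1). Differences in the log2 nuclear to mitochondrial ratio ranged over left-out libraries from -0.19 to 0.0017, -0.07 to 0.20, -0.18 to 0.02, -0.36 to -0.11 and -0.0061 to 0.26 in the 5 comparisons. Limma on FPKM, which held 97 members, gave a nuclear median of -0.23 for the non-phagocytic genotypes, and without Apoe-/- non-phagocytic pools 2 and 5 the mitochondrial median of the Apoe-/- sorts was 0.39. The cause was not tested. Members with few reads, such as Cox6a2, are limited by depth.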
